A study of Mus musculus with 10 samples.

Results

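Acyl-CoA thioesterases cut the thioester bond of an acyl-CoA and release the free acid and coenzyme A. The reaction opposes fatty acid activation, and each cell compartment has its own enzymes, so the family helps to set how much acyl-CoA is held in the cytosol, the mitochondria and the peroxisomes. In mouse liver several of these genes are textbook targets of PPARA, the nuclear receptor that switches on fatty acid oxidation during fasting. The family was followed through 9 genes: Acot1, Acot2, Acot3, Acot4, Acot5, Acot6, Acot8, Acot12 and Acot13. They were chosen by symbol, with earlier fold changes of the same libraries already known, so their levels and fold changes are given below as a description. Counts of members past a threshold stand beside the share of all genes past it and are no test of the family. All 9 symbols matched an Ensembl identifier among the 46071 genes of the count table, and 8 of the 9 passed the filter on low counts that left 14820 genes in the fit. Acot5 did not pass it.

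Livers were compared between offspring of mice with different parental genotypes, each library being polyadenylated liver RNA sequenced by RNA-seq. FL offspring (3 libraries, numbered 5 to 7) had a LIRKO father and a control mother. ML offspring (3 libraries, 8 to 10) had the reverse cross, with a LIRKO mother and a father from the control line. Control offspring (4 libraries, 1 to 4) came from control parents on both sides. A LIRKO mouse carries a floxed insulin receptor on both alleles (IRlox/lox) and 1 copy of Albumin-Cre (Albumin-Cre+/-), whose albumin promoter drives the deletion in hepatocytes. The control parents were IRlox/lox; Albumin-Cre-/-, from breeders kept without Cre for several generations, so the floxed allele is shared by all 3 groups. Whether an FL or ML animal itself inherited Cre is not given in the labels, nor are sex, age, litter and diet. Nothing in the labels says that each library is a separate animal, so all p-values printed measure the spread between these libraries only.

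Totals were 23192571 to 31116742 counts per library in FL, 26614915 to 34568205 in ML and 18655506 to 39379940 in control. The insulin receptor gene Insr averaged 65.5 ± 10.5 CPM in FL (SD, n = 3), 45.9 ± 15.4 in ML (n = 3) and 85.6 ± 29.5 in control (n = 4), where CPM are counts scaled to library size with TMM factors. Defining hepatocyte markers were abundant in every library, at a summed 59200 to 65400 CPM in FL, 54500 to 99800 in ML and 62200 to 81500 in control. ML 9 and control 1 stood apart. On the first principal component, with 57.1% of the variance of log2 CPM, ML 9 scored -120.6 and control 1 scored -64.33, while the other libraries scored between -25.12 and 54.09. Genes with under 1000 bases of exon (1249 tested genes) ran high in ML 9, by a median 1.22 on the log2 scale against each gene's mean, by 0.28 in control 1 and by 0.19 in ML 10, against -0.39 to -0.12 in the other 7 libraries. ML 9 also held skeletal muscle RNA: Ckm, muscle creatine kinase, had 1370 counts there and 0 in the other 9 libraries.

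A cluster of 6 of the genes lies on the plus strand of chromosome 12 (GRCm38): Acot2 (chr12:83987861-83993873), Acot1 (chr12:84009490-84018371), Acot4 (chr12:84038379-84048601), Acot3 (chr12:84052144-84060402), Acot5 (chr12:84069325-84076020) and Acot6 (chr12:84100654-84111349). They encode the type I enzymes, which share an alpha/beta-hydrolase fold. Acot8 (chr2:164792765-164804882, minus strand), Acot12 (chr13:91741512-91786148, plus strand) and Acot13 (chr13:24817948-24831540, minus strand) lie elsewhere and encode hotdog-fold enzymes of unrelated sequence. The 6 cluster genes are so alike that some reads match more than 1 of them. Acot1, the cytosolic enzyme, and Acot2, its mitochondrial counterpart, had 1181 of 1236 aligned coding bases identical (95.6%), with 1 identical run of 273 bases. To show what a read has to separate, 90 coding bases from that run are set beside the aligned bases of the other 4 cluster genes, read from GENCODE M21 transcripts, with capitals marking each base that differs from Acot1:
Acot1: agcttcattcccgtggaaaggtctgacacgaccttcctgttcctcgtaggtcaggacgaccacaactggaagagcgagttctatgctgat
Acot2: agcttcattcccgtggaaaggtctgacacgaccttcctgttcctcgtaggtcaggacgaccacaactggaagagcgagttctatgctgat
Acot3: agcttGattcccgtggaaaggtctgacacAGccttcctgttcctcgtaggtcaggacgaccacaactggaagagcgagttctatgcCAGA
Acot4: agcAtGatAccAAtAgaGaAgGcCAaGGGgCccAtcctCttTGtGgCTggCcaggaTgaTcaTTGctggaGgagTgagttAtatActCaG
Acot5: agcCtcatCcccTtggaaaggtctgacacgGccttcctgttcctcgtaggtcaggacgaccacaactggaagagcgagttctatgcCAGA
Acot6: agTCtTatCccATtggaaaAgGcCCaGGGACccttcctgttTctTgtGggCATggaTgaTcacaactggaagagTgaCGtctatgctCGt
In this stretch Acot2 had 0 differences from Acot1, Acot3 had 7, Acot5 had 8, Acot6 had 28 and Acot4 had 34. Other pairs of cluster genes were 75.3% to 85.8% identical over their aligned coding bases.

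Of all 50-base windows in a gene's transcripts, 18.4% in Acot1, 27.6% in Acot2, 7.57% in Acot3, 4.17% in Acot4, 22.1% in Acot5 and 3.52% in Acot6 occurred unchanged in another of the 9 genes. For Acot8, Acot12 and Acot13 the share was 0. With 100-base windows the shares were 12.4% in Acot1, 17.1% in Acot2, 4.27% in Acot3, 0.336% in Acot4, 7.79% in Acot5 and 0.95% in Acot6. Each window stands for a single mate, while the libraries were paired-end. Neither the read length nor the treatment of reads with several matches is given in the sources used here. Acot1 and Acot2 counts are therefore uncertain to the extent that these windows were assigned to one or the other, or left uncounted. The summed count of the 6 cluster genes, which bears only on the assignment, is given below as well. The antisense gene 4732463B04Rik covers 9.08% of the exon bases of Acot3 and 9.21% of those of Acot4. Snx21, on the opposite strand, covers 12.3% of those of Acot8, and 4833422C13Rik, also opposite, 4.52% of those of Acot12. The libraries were directional, but the strand setting of the counting is not given in the sources used here.

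**Figure D1:**
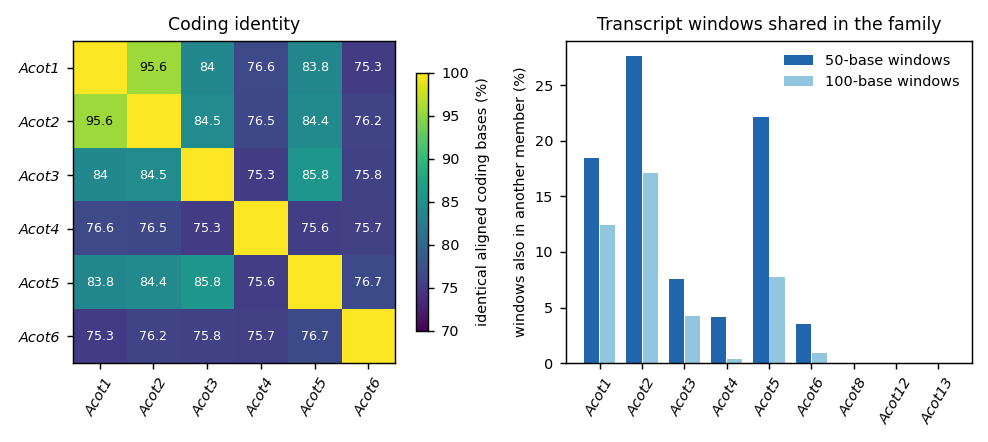
Left, percentage of identical aligned coding bases between the 6 cluster genes (colour scale and printed values). Right, percentage of 50-base (dark) and 100-base (light) transcript windows that also occur in another of the 9 genes. Acot1 and Acot2 are the most alike pair at 95.6%, and Acot8, Acot12 and Acot13 share no window.

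FL and ML lay furthest apart at Acot3, so the bases around its start are shown with those of its neighbours Acot4, Acot1 and Acot2. The windows run from 250 bases before the RefSeq transcription start to 30 bases after it (RefSeq sequence, GRCm38.p6). Capitals mark AGGTCA or its reverse complement TGACCT, the half-site bound by PPARA and other nuclear receptors:
Acot2 (chr12:83987611-83987890, plus strand): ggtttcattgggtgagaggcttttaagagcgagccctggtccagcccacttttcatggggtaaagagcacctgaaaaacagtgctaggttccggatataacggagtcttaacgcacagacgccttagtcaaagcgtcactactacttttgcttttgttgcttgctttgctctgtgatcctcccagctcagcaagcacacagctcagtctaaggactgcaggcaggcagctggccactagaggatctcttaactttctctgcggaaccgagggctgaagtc
Acot1 (chr12:84009252-84009531, plus strand): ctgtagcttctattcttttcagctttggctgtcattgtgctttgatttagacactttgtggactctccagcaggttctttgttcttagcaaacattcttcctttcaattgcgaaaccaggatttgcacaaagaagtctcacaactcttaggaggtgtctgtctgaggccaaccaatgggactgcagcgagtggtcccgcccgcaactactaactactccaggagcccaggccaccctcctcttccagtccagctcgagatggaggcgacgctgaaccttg
Acot4 (chr12:84038129-84038408, plus strand): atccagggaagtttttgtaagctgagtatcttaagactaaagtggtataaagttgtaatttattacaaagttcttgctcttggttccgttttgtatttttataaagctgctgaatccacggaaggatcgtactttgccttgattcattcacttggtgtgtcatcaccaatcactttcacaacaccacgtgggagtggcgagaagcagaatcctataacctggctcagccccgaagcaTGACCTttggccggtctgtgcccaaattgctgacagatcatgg
Acot3 (chr12:84051894-84052173, plus strand): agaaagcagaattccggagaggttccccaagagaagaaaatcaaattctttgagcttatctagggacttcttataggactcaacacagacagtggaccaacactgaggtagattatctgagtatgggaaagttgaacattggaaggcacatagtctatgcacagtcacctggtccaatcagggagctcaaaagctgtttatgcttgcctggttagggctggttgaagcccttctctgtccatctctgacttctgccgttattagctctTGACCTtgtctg
The half-site letters began 13 bases before the start of Acot4 and lay among the first transcribed bases of Acot3, and neither the Acot1 nor the Acot2 window held them. Of the 3 other windows at hand, those of Acot5, which had almost no counts, and Acot12 held them as well and that of Acot8 did not. Both strands were searched. Over all 32851 RefSeq windows of 300 bases, 16.3% held AGGTCA. The full direct repeat AGGTCANAGGTCA was in 0.0396% of windows and in none of the 7 genes whose window was at hand (Acot6 and Acot13 had none to search). CACGTG, found in 7.15% of windows, occurred in Acot4 alone of the 7.

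Compared per kilobase of exon (RPKM, from TMM-scaled CPM), Acot13 ranked first of the 9 in 9 of 10 libraries, and Acot12 ranked first in control 2. Acot13 encodes a mitochondria-associated enzyme for long-chain acyl-CoA. Its level was 49.5 ± 12.5 RPKM in FL, 214 ± 204 in ML and 77.6 ± 61.8 in control (SD; n = 3, 3 and 4 in this order throughout). Acot12, the cytosolic acetyl-CoA hydrolase of liver, followed at 25.8 ± 3.20 RPKM in FL, 42.2 ± 13.8 in ML and 34.2 ± 6.13 in control. The pair did not overlap in FL or ML and overlapped in control. Acot8 came next at 6.87 ± 1.07 RPKM in FL, 14.7 ± 9.35 in ML and 8.80 ± 1.79 in control. Acot1 stood at 3.22 ± 1.76 RPKM in FL, 17.1 ± 10.7 in ML and 8.48 ± 6.93 in control, and overlapped Acot8 in ML and control. Acot4, Acot2 and Acot3 took places between 4 and 7. In FL they kept the order Acot4 (1.26 ± 0.118 RPKM), Acot2 (0.840 ± 0.127) and Acot3 (0.401 ± 0.0625) without overlap, while in ML, at means of 4.46, 3.76 and 6.76 RPKM, and in control, at 2.09, 2.50 and 1.51 RPKM, they overlapped. Acot6 ranked 8th and Acot5 9th in all 10 libraries, Acot6 at 0.106 ± 0.00989 RPKM in FL, 0.112 ± 0.0196 in ML and 0.152 ± 0.0236 in control.

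**Figure D2:**
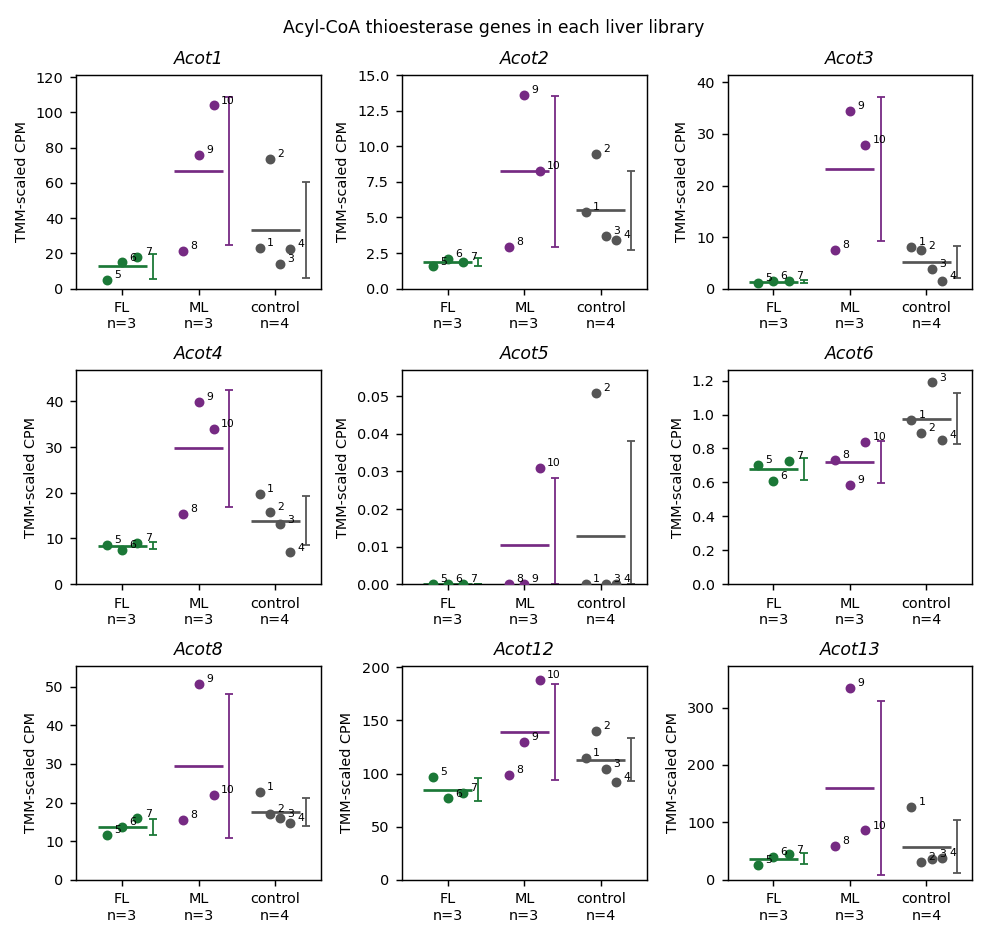
TMM-scaled CPM of each of the 9 genes (linear axes from 0), with 1 point per library labelled by its number, for FL (n = 3), ML (n = 3) and control (n = 4). Horizontal lines are means and vertical bars are SD, cut at 0. Acot3 was 1.15 to 1.57 CPM in FL, 7.46 to 34.4 in ML and 1.52 to 8.09 in control.

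The cytosolic enzymes are Acot1 and Acot12. Acot1, which hydrolyses long-chain acyl-CoA and is induced by fasting in mouse liver, had 4.85, 14.9 and 18.0 CPM in FL, 21.4, 75.7 and 104 in ML, and 23.3, 73.5, 13.8 and 22.4 in control. All FL libraries lay below all ML libraries, and FL and ML each overlapped control, where control 2 stood high at 73.5 CPM. The fitted log2 fold change was -1.40 (SE 0.68) for FL against control, 1.01 (SE 0.65) for ML against control and -2.41 (SE 0.74) for FL against ML. Without control 2 the value was -0.65 for FL against control and 1.76 for ML against control. Acot12 had 96.7, 76.5 and 81.5 CPM in FL, 98.7, 130 and 188 in ML, and 115, 140, 104 and 92.4 in control. Again the FL libraries lay below the ML libraries, by a narrow gap between 96.7 and 98.7 CPM, and both overlapped control. Its log2 fold change was -0.41 (SE 0.29) for FL against control, 0.30 (SE 0.29) for ML against control and -0.71 (SE 0.31) for FL against ML. The order of ML and control depended on the scale, since as TPM the Acot12 mean was 62.9 in FL, 69.2 in ML and 75.2 in control.

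The mitochondrial enzymes are Acot2 and Acot13. Acot2 had 1.56, 2.11 and 1.86 CPM in FL, 2.94, 13.6 and 8.25 in ML, and 5.41, 9.45, 3.73 and 3.41 in control. Every FL library lay below every ML and every control library, while ML and control overlapped. Its log2 fold change was -1.57 (SE 0.53) for FL against control, 0.58 (SE 0.50) for ML against control and -2.15 (SE 0.57) for FL against ML, and 0.04 for ML against control without ML 9. Acot13 had 26.3, 40.4 and 43.9 CPM in FL, 58.5, 334 and 85.8 in ML, and 127, 30.4, 35.8 and 38.3 in control. ML 9 and control 1, the 2 libraries in which short genes ran highest, held its highest levels. ML 10, where short genes also ran above their mean, came next at 85.8 CPM. Acot13 is itself short, with 744 bases of exon. The log2 fold change of Acot13 was -0.65 (SE 0.64) for FL against control, 1.47 (SE 0.63) for ML against control and -2.11 (SE 0.70) for FL against ML. Without ML 9 it was 0.34 for ML against control and -0.99 for FL against ML. Without control 1 it was 0.08 for FL against control and 2.20 for ML against control. After a trend on exon length and GC was taken out of each library it was -0.31 for FL against control, 0.76 for ML against control and -1.07 for FL against ML.

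**Figure D3:**
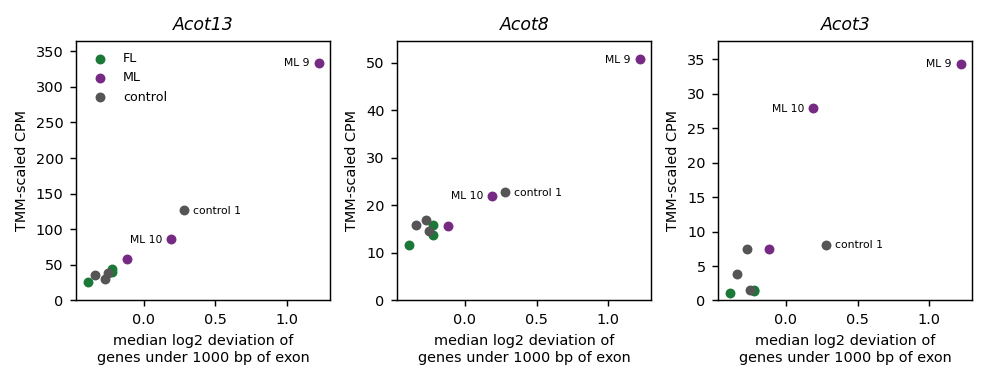
TMM-scaled CPM of Acot13, Acot8 and Acot3 in each of the 10 libraries (vertical axes, from 0) against the median log2 deviation of the 1249 tested genes with under 1000 bases of exon (horizontal axis). ML 9, at 1.22, has the highest level of all 3 genes; ML 10, at 0.19, has 27.9 CPM of Acot3 and control 1, at 0.28, has 8.09.

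The peroxisomal enzymes are Acot3, Acot4, Acot5, Acot6 and Acot8. Acot3, active on long-chain acyl-CoA, had 1.15, 1.42 and 1.57 CPM in FL, 7.46, 34.4 and 27.9 in ML, and 8.09, 7.41, 3.80 and 1.52 in control. The lowest ML library was above every FL library, and in control the values ran from the FL level (control 4) to that of ML 8 (controls 1 and 2). Of the 8 genes fitted it had the widest gap between FL and ML, with a log2 fold change of -4.07 (SE 0.70), and it was -1.90 (SE 0.63) for FL against control and 2.16 (SE 0.58) for ML against control. Leaving out any 1 library gave -4.48 to -3.69 for FL against ML, -2.21 to -1.61 for FL against control and 1.78 to 2.58 for ML against control. Its raw counts were 31 to 54 in FL, 284 to 900 in ML and 68 to 291 in control.

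Acot4, which acts on succinyl-CoA and dicarboxylyl-CoA in mouse, had 8.52, 7.56 and 9.11 CPM in FL, 15.4, 39.9 and 34.0 in ML, and 19.7, 15.9, 13.1 and 6.97 in control. FL was tight and below ML throughout, and control 4 lay lower than all 3 FL libraries. The log2 fold change was -0.73 (SE 0.41) for FL against control, 1.10 (SE 0.39) for ML against control and -1.82 (SE 0.44) for FL against ML. The ratio of Acot3 to Acot4 per kilobase, which does not depend on library scaling, was 0.262, 0.364 and 0.335 in FL, 0.939, 1.67 and 1.59 in ML, and 0.799, 0.904, 0.563 and 0.424 in control. The 3 groups did not overlap in this ratio, which was picked after the values had been seen. How many other gene pairs separate the groups was not counted. The ratio does not remove effects of exon length, which is 3438 bases for Acot3 and 6674 for Acot4. Their part in it was not tested. The ratio of Acot1 to Acot2 per kilobase overlapped between groups, at 1.75 to 5.42 in FL, 3.13 to 7.06 in ML and 2.07 to 4.36 in control.

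Acot8, a peroxisomal enzyme of broad chain-length range, had 11.6, 13.7 and 15.9 CPM in FL, 15.6, 50.7 and 22.0 in ML, and 22.7, 17.0, 15.9 and 14.7 in control. FL and ML overlapped narrowly, and ML 9 alone was far above the rest. The log2 fold change was -0.36 (SE 0.39) for FL against control, 0.74 (SE 0.38) for ML against control and -1.10 (SE 0.41) for FL against ML. Without ML 9 it was 0.11 for ML against control and -0.47 for FL against ML. Acot6, which acts on phytanoyl-CoA and pristanoyl-CoA in mouse, had 0.704, 0.608 and 0.728 CPM in FL, 0.735, 0.587 and 0.837 in ML, and 0.969, 0.892, 1.19 and 0.852 in control. FL and ML overlapped each other and both lay wholly below control, on 9 to 46 counts per library. The log2 fold change of Acot6 was -0.52 (SE 0.38) for FL against control, -0.43 (SE 0.38) for ML against control and -0.09 (SE 0.41) for FL against ML, and the last became 0.22 when library totals were used with no scaling factor. Acot5, a peroxisomal medium-chain enzyme, had 0 counts in all FL libraries, 1 count in ML (in ML 10) and 2 in control (in control 2). A library with 0 counts allows up to 3 counts, or 0.0672 to 0.195 CPM, and no fold change is given.

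**Figure D4:**
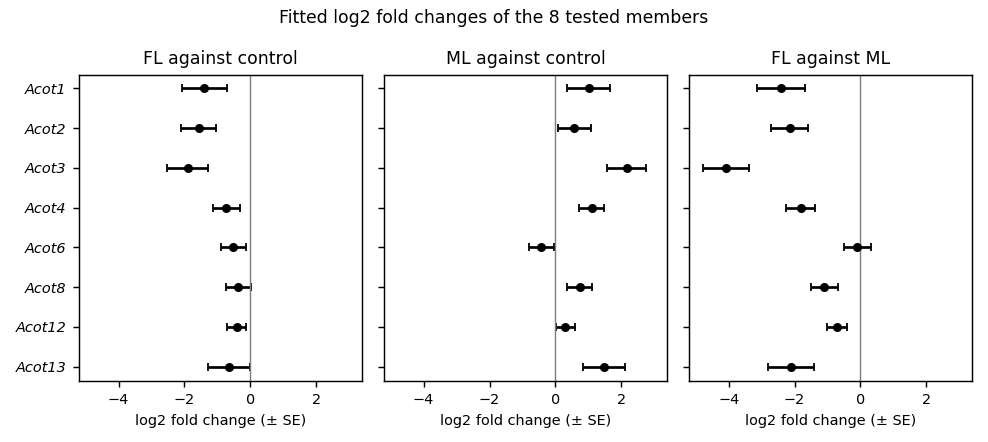
Log2 fold changes (points) with SE (bars) of the 8 fitted genes from 1 edgeR model of all 10 libraries, for FL against control, ML against control and FL against ML. All 8 points lie left of 0 for FL against control and for FL against ML, and for ML against control Acot6, at -0.43, is the only point left of 0.

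For FL against control, all 8 fitted genes were below 0 and their median was -0.69 on the log2 scale, beside a median of -0.05 over all 14820 genes, of which 55.3% were below 0. None passed an adjusted p of 0.05 in edgeR's quasi-likelihood test, which 0.0135% of all genes passed, and 2 of the 8 had an unadjusted p under 0.05, as had 3.53% of all genes. DESeq2 and limma-voom passed none of the 8 either, against 0.351% and 0.00675% of all genes. Acot2 and Acot6 had every FL library below every control library, which held for 2.92% of all genes, and none had every FL library above every control library, which held for 2.79%. Leaving out control 1 left 7 of 8 below 0 and a median of -0.52. The contrast of ML with control, next, uses the same 4 control libraries.

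For ML against control, 7 of the 8 were above 0 and Acot6 was below, with a median of 0.88 beside -0.05 over all genes, of which 52.9% were below 0. None of the 8 passed in edgeR (0% of all genes), in limma-voom (0%) or in DESeq2 (0.31%), and 3 had an unadjusted edgeR p under 0.05, as had 16.1% of all genes. No member had every ML library above every control library, which held for 2.17% of all genes. Acot6 had every ML library below every control library, as had 2.86%. Without ML 9 the median was 0.35, and with 1 surrogate variable in the model it was 0.21.

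For FL against ML, all 8 were below 0, with a median of -1.97 beside 0.04 over all genes, of which 47.9% were below 0. None of the 8 passed in edgeR (0.00675% of all genes) or limma-voom (0.00675%), and 1, Acot13, passed in DESeq2 (1.67% of all genes), with ML 9 included. Acot3 reached an adjusted p of 0.0479 in 1 alternative edgeR fit. All but Acot6 (7 of 8) had an unadjusted edgeR p under 0.05, as had 20% of all genes. In 6 of 8 (Acot1, Acot2, Acot3, Acot4, Acot12 and Acot13) every FL library lay below every ML library, which held for 15.1% of all genes, while 16.6% had every FL library above every ML library. Without ML 9 the median was -1.28, with 1 surrogate variable -0.99, and with no scaling factor -1.40.

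Summed over Acot1 to Acot6, which removes the question of which cluster gene a read was given to, the CPM were 16.8, 26.6 and 31.3 in FL, 47.9, 164 and 175 in ML, and 57.4, 107, 35.6 and 35.2 in control. Any reads left uncounted because they match several genes are missing from the sum too. FL lay wholly below both other groups, while ML and control overlapped. Every FL library was below every control library in 2.92% of all genes, and below every ML library in 15.1%. The summed log2 fold change was -1.24 (SE 0.52) for FL against control, 1.13 (SE 0.50) for ML against control and -2.37 (SE 0.56) for FL against ML. The sum did not pass in edgeR's quasi-likelihood test in any contrast. Its adjusted p was 0.305 for ML against control and 0.238 for FL against ML. Acot1 made up 33.8% to 62.3% of the cluster's summed RPKM in FL, 46.5% to 60.8% in ML and 41.5% to 67.5% in control. Acot3 made up 6.19% to 9.11% in FL, 18.6% to 24.1% in ML and 4.99% to 17.0% in control, so its share in ML lay above that in the other groups in every library.

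**Figure D5:**
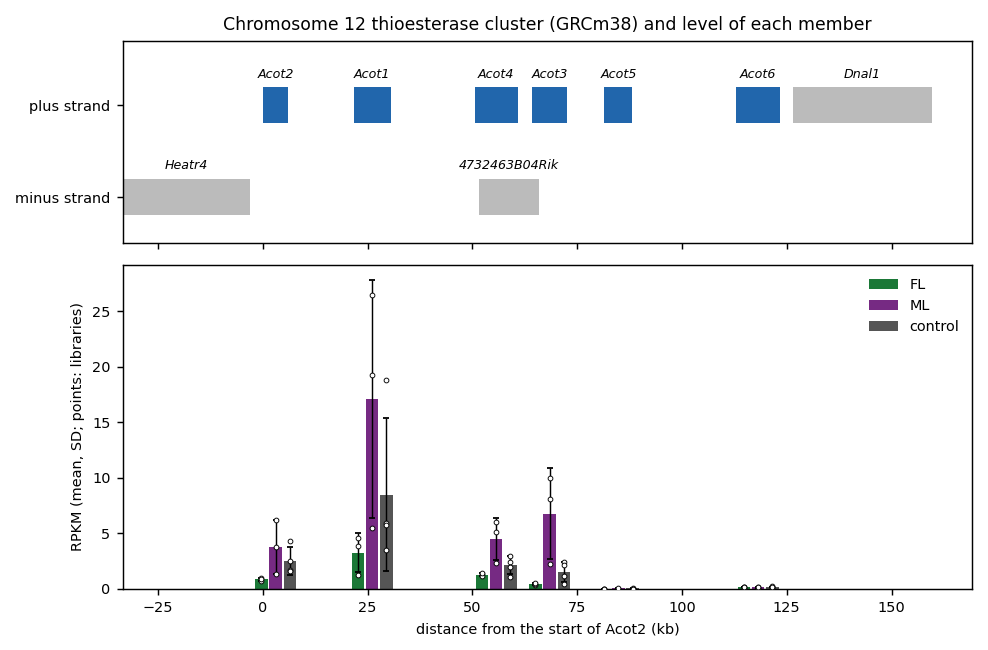
Upper panel, the 6 cluster genes (blue) and neighbouring genes (grey) by strand, against distance from the start of Acot2 in kilobases. Lower panel, mean RPKM of each cluster gene with SD (bars, cut at 0) and single libraries (points) for FL, ML and control, in which Acot1 is the highest cluster gene on average, at 3.22, 17.1 and 8.48 RPKM.

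Other annotated genes within 100 kilobases of the cluster were set beside it. Those that could be fitted were Numb, Riox1, 4732463B04Rik, Dnal1 and Elmsan1. For FL against ML the log2 fold change was 0.61 (SE 0.31) for Numb, -0.04 (SE 0.33) for Riox1, -0.73 (SE 0.96) for the antisense gene 4732463B04Rik, 0.68 (SE 0.59) for Dnal1 and 1.30 (SE 0.74) for Elmsan1. Their adjusted p-values in edgeR's quasi-likelihood test ran from 0.277 (Numb) to 0.948 (Riox1). For FL against control they ran from -0.74 (4732463B04Rik) to 0.46 (Riox1), and for ML against control from -1.91 (Elmsan1) to 0.50 (Riox1).

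A further 8 thioesterase or related genes were looked at, of which 6 could be fitted and Acot10 and Them5 were too low. The medians of the 6 were -0.22 for FL against control, 0.24 for ML against control and -0.46 for FL against ML, and none of the 6 passed in any contrast in edgeR, DESeq2 or limma-voom, nor had any an unadjusted edgeR p under 0.05. Baat, which conjugates bile acids to amino acids and is related in sequence to the type I enzymes, had 239, 250 and 314 CPM in FL, 384, 657 and 348 in ML, and 610, 258, 348 and 280 in control. Its FL libraries lay below its ML libraries, as held for 15.1% of all genes, at a log2 fold change of -0.79 (SE 0.39). Acot7, a cytosolic long-chain enzyme best known from brain, had a log2 fold change of -0.32 (SE 0.32) for FL against ML, mitochondrial Acot9 -0.42 (SE 0.41) and Them4 -0.50 (SE 0.41). Them6 was at -0.84 (SE 0.42), and Acot11, known from brown fat, was alone above 0, at 0.73 (SE 0.53).

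Genes of neighbouring pathways were counted from lists that were also drawn up with earlier results known. In the list of PPARA and its targets, 15 of 18 fitted genes were below 0 for FL against control (median -0.81), 7 of 18 for ML against control (median 0.07) and 17 of 18 for FL against ML (median -0.98). None of them passed in edgeR in any contrast. In DESeq2, 5 passed for FL against control, 1 for ML against control and 5 for FL against ML, all lower. At an unadjusted edgeR p under 0.05 there were 8 for FL against control, 1 for ML against control and 10 for FL against ML. Of all genes, 3.53%, 16.1% and 20% had such a p in these 3 contrasts in turn. DESeq2 passed 0.351%, 0.31% and 1.67% of all genes, and 55.3%, 52.9% and 47.9% were below 0. Cyp4a14, a microsomal fatty acid omega-hydroxylase, had 2.81, 1.91 and 6.32 CPM in FL, 131, 194 and 513 in ML, and 232, 730, 13.1 and 131 in control. All FL libraries were below all others, as held against control for 2.92% of all genes and against ML for 15.1%. ML and control overlapped. The log2 fold changes of Cyp4a14 were -6.23 (SE 1.23) for FL against control, 0.02 (SE 0.92) for ML against control and -6.24 (SE 1.25) for FL against ML. The edgeR adjusted p-values of Cyp4a14 were 0.366 for FL against control, 0.996 for ML against control and 0.238 for FL against ML. Cyp4a10, of the same family, was at -3.68 (SE 0.79), 0.07 (SE 0.68) and -3.74 (SE 0.81) in the same 3 contrasts. Vnn1, the pantetheinase that recycles the vitamin part of coenzyme A, was at -1.72 (SE 0.37), 0.24 (SE 0.35) and -1.96 (SE 0.39).

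Pdk4, a kinase that holds back pyruvate oxidation, was below 0 in both offspring groups, at a log2 fold change of -3.31 (SE 0.81) for FL against control and -2.92 (SE 0.79) for ML against control. Control Pdk4 was widely spread, from 3.76 to 51.3 CPM with a median of 10.5. FL ran from 1.51 to 2.15 CPM, and ML, from 1.63 to 3.94, overlapped control. Ppara itself was at 0.12 (SE 0.40) for FL against control, 0.35 (SE 0.40) for ML against control and -0.22 (SE 0.43) for FL against ML. Neither gene passed in edgeR, where the lowest adjusted p of either in any contrast was 0.301 (Pdk4, ML against control). In DESeq2 Pdk4 passed, lower, for FL against control and for ML against control, where it was the only gene of the list to pass.

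Of 20 peroxisomal oxidation genes, 19 were below 0 for FL against control (median -0.39), 12 for ML against control (median -0.13) and 15 for FL against ML (median -0.49). Crot, which moves acyl groups from CoA to carnitine in peroxisomes, had 402, 190 and 294 CPM in FL, 638, 449 and 524 in ML, and 1040, 455, 697 and 475 in control. FL lay below both other groups, at -1.18 (SE 0.38) against control and -0.86 (SE 0.40) against ML. Of all genes, 2.92% had FL wholly below control and 15.1% had FL wholly below ML. Of 18 mitochondrial oxidation genes, all 18 were below 0 for FL against control (median -0.34), 5 for ML against control (median 0.34) and 15 for FL against ML (median -0.72). Slc25a20, the carnitine-acylcarnitine carrier, was at -0.42 (SE 0.37) for FL against control, 0.91 (SE 0.37) for ML against control and -1.33 (SE 0.40) for FL against ML. Of 17 acyl-CoA synthetase genes, which make the substrate of the thioesterases, 12 were below 0 for FL against control (median -0.15), 8 for ML against control (median 0.01) and 9 for FL against ML (median -0.04). Acsl1, the main long-chain synthetase of liver, was at 0.13 (SE 0.43), 0.08 (SE 0.43) and 0.05 (SE 0.46). Of 15 genes of coenzyme A synthesis and breakdown, 11 were below 0 for FL against control (median -0.22), 5 for ML against control (median 0.24) and 11 for FL against ML (median -0.49). No gene of these 4 lists passed in edgeR in any contrast, while at an unadjusted edgeR p under 0.05 there were 0 to 4 a list for FL against control, 0 to 3 for ML against control and 2 to 10 for FL against ML. Of all genes, 3.53%, 16.1% and 20% had such a p in these contrasts. For FL against ML the 20% stands beside 6 of 20 peroxisomal, 10 of 18 mitochondrial, 3 of 17 synthetase and 2 of 15 coenzyme A genes. DESeq2 passed 0.351%, 0.31% and 1.67% of all genes, and 55.3%, 52.9% and 47.9% were below 0. In DESeq2, Abcd2 and Vnn1 passed, lower in FL, for FL against control, none passed for ML against control, and 2 peroxisomal genes (Eci2 and Hacl1), 5 mitochondrial genes (Decr1, Eci1, Etfb, Hadh and Slc25a20) passed, lower in FL, for FL against ML. The synthetase Acsl4 also passed for FL against ML and was higher in FL, at an edgeR log2 fold change of 1.71 (SE 0.59).

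The genes most like each member across the 10 libraries were found by the mean absolute difference of log2 CPM, centred on each gene's mean, among 11196 genes. Nearest to Acot1 were Plin5, a lipid droplet protein, at 0.415, Acot2 at 0.468 and Rab30 at 0.522. Nearest to Acot2 were Ppp2r2d (0.26), Slc25a47 (0.281) and Ech1 (0.286), and nearest to Acot4 were Ttpa (0.25), Acat1 (0.26) and Bnip3 (0.271). Nearest to Acot3 were Mgst3 at 0.605, Wfdc2 at 0.647 and Acot4 at 0.651. The difference is not scaled to a gene's spread. A gene that varies widely, as Acot3 did, gets larger values than a flat gene, so values cannot be compared between members. Acot12 was nearest to the mitochondrial oxidation genes Acadl (0.105) and Hadhb (0.125), and then Lurap1l (0.134). Acot8 was nearest to Ndufv1 (0.0938), Ilvbl (0.0954) and Tmem203 (0.0982), and Acot13 to Bola1 (0.0616), Bloc1s1 (0.0803) and C8g (0.0833). All of these values share the same 10 libraries, their depth and the deviation of ML 9 and control 1.

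Markers of other cells differed between the groups in part. In bulk tissue, fewer cells of a type and less RNA per cell cannot be told apart. The 4 erythroid markers summed to 123 to 234 CPM in FL, 294 to 1920 in ML and 177 to 571 in control. Among them Hbb-bs had a median of 176 CPM in ML and a highest value of 1510. Hba-a1, Hba-a2 and Hbb-bs have under 1000 bases of exon, the class that ran high in ML 9. So have the adipocyte marker Cfd and the T and NK cell markers Nkg7 and Trac. The 4 adipocyte markers summed to 0.111 to 0.405 CPM in FL, where Adipoq, Plin1 and Lep had 0 counts, to 0.279 to 9.39 in ML and to 0.484 to 7.87 in control. The 4 Kupffer cell markers summed to 186 to 268 CPM in FL, 181 to 863 in ML and 177 to 371 in control. The 3 skeletal muscle markers summed to 0 to 0.0874 CPM in FL, 0 to 149 in ML and 0.0224 to 0.181 in control. The 4 stellate cell markers summed to 129 to 142 CPM in FL, 147 to 330 in ML and 145 to 224 in control. The 4 endothelial markers summed to 99.7 to 110 CPM in FL, 74.8 to 188 in ML and 108 to 129 in control, and the 4 cholangiocyte markers to 4.80 to 15.0 CPM in FL, 4.78 to 20.3 in ML and 3.19 to 7.26 in control. The 4 T and NK cell markers summed to 0.778 to 2.26 CPM in FL, 2.26 to 8.54 in ML and 1.57 to 1.71 in control, and the 3 kidney tubule markers to 0.956 to 3.00 CPM in FL, 0.434 to 0.717 in ML and 0.0764 to 0.983 in control. Their part in the thioesterase values was not tested.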

How the data were processed

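Polyadenylated liver RNA was sequenced as directional paired-end libraries, per the labels' protocols. The authors deposited raw counts of reads per Ensembl gene, made with STAR and featureCounts on GRCm38 per the submitters' processing notes; no version, annotation release or strand setting is given in the sources used here. Identifiers were matched to GENCODE M21 (45229 of 46071; the other 842 held at most 0.0659% of a library's counts). The 10 libraries were grouped by parental genotype and fitted together with edgeR 4.0.16 in R 4.3.3 (TMM normalization, low counts removed by filterByExpr at 10, robust quasi-likelihood F test, two-sided, Benjamini-Hochberg over 14820 genes, adjusted p under 0.05, 7 residual degrees of freedom), and checked on simulated counts. CPM are TMM-scaled, RPKM are per kilobase of union exon, and log2 CPM use a prior of 0.5. The biological coefficient of variation was 0.448. Intervals of 0 counts cover counting error only. No 2 libraries of a group had counts that differed by sampling noise alone (chi-square per degree of freedom 90.6 to 630).

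The members and all lists were chosen with earlier results of these data known. The genes named are all 9 members, all other thioesterases listed, textbook genes of each pathway, fitted genes within 100 kilobases of the cluster or overlapping a member, and the 3 genes closest in pattern to each member with a mean of at least 1 CPM. Genes that passed DESeq2 in the pathway lists were named after their values were seen. One textbook gene of the lists is not reported by name here. The alternatives were DESeq2 1.42.0, limma-voom (limma 3.58.1), median-ratio factors, no filter, only the groups compared, a length and GC trend removed, control 1 and ML 9 left out, 1 surrogate variable (sva 3.50.0), each library left out and, added after seeing the data, library totals with no scaling factor.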

Additional observations from a re-analysis of the deposited data

Results flagged for a closer look

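Within the 4 control libraries 5 of 37 genes checked had 1 library far from the other 3. The cut used marks about 1 in 20 genes if values are independent and normally distributed. Here it was applied to CPM without log transformation, and the genes share the same 4 libraries. The 5 of 37 therefore cannot be compared with 1 in 20 and are given as a description. Acot1 was 73.5 CPM in control 2 against 13.8 to 23.3 in the others, and Pex11a, a peroxisome division gene, was 162 CPM in the same library against 83.8 to 96.8. Acot13 was 127 CPM in control 1 against 30.4 to 38.3, and Nudt19, a peroxisomal coenzyme A diphosphatase, was 60.7 CPM there against 31.2 to 34.6. Fgf21, a hepatic hormone, was 1.58 CPM in control 3 against 0.535 to 0.650.

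For 3 members every FL library lay below the control mean and every ML library above it, on log2 CPM. The share of all genes with this pattern was not counted. Every FL library lay below every ML library, which the pattern requires, in 15.1% of all genes. Their log2 fold change for FL against ML was -4.07 for Acot3, -1.82 for Acot4 and -2.11 for Acot13. These values are a description, since the members were chosen with them known. For Acot13 the pattern rests on control 1: FL 6 and FL 7, at 40.4 and 43.9 CPM, lay above the other 3 control libraries, at 30.4 to 38.3 CPM, and without control 1 the log2 fold change for FL against control was 0.08. Without ML 9 the Acot13 value for FL against ML was -0.99.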

How the results depend on the processing

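The number of genes passing was 2 for FL against control, 0 for ML against control and 1 for FL against ML. DESeq2 gave 52, 46 and 248 in these comparisons. For FL against control, limma-voom gave 1 and no filter 1. No filter gave 3 for ML against control and 2 for FL against ML. For FL against ML, no scaling factor gave 0, only the compared groups 0, and the length and GC trend removed 2. Leaving out 1 library gave 0 to 3 for FL against control, 0 to 1 for ML against control and 0 to 2 for FL against ML. The cause was not tested. With no scaling factor the median log2 fold change of all genes was 0.08 for FL against control, -0.25 for ML against control and 0.37 for FL against ML. Of 152 alternative member values in each comparison, the sign changed in 2 for FL against control (Acot13, 0.09 without control 1 and ML 9, 0.08 without control 1), 1 for ML against control (Acot8, -0.03 with 1 surrogate variable) and 2 for FL against ML (Acot6, 0.22 with no scaling factor, 0.04 without ML 10). Of the 152 values for FL against ML, 2 had an adjusted p under 0.05. They were Acot13 in DESeq2 (0.0379) and Acot3 in 1 edgeR alternative (0.0479). The other 2 comparisons had 0. Both p-values are the lowest among the 152 and belong to genes chosen with fold changes known, so neither is a test. With 1 surrogate variable Acot13 was 0.04 for ML against control and -0.12 for FL against ML, Acot4 was -1.23 and Acot8 -0.18 for FL against ML. No paired analysis was possible because the replicate numbers run from 1 to 10 and no groups share one. Depth limits Acot5 (3 counts in all libraries together) and Acot6 (265).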
